A study of Caenorhabditis elegans with 6 samples.

Results

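The genes described here are 33 synaptic and neurotransmitter genes of the nematode Caenorhabditis elegans, chosen by symbol for their roles in synaptic vesicle release, in the synthesis and transport of neurotransmitters, and in neuropeptide processing. All 33 symbols matched 1 identifier each among the 46778 genes of the deposited table. RNA was sequenced in 6 libraries, 3 from animals given HLB01 and 3 from Control animals. HLB01 is a code name that the labels do not spell out, and the title of the series concerns ageing and an extract from roots of Vicatia thibetica. The titles place all 3 treated libraries in HLB01, whereas their agent field reads HLB01, HLB02 and HLB03 for replicates 1, 2 and 3, and the grouping follows the titles. The strain, stage, age, dose and duration, and any agent or solvent used for Control animals, are not stated by the labels. Whether the 3 libraries of a group came from different cultures is not stated either, so every p-value here reflects the spread between these samples alone, which may be technical.

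At a chemical synapse, calcium entering through voltage-gated channels triggers the fusion of transmitter-filled vesicles with the plasma membrane. Fusion is carried out by SNARE proteins, which zip together on the vesicle and the plasma membrane and are steered by priming, clamping and calcium-sensing proteins. Many neurons make their transmitter with dedicated enzymes, and vesicular transporters load it, while neuropeptides are cut from precursors and released from dense core vesicles. In C. elegans many of these genes were found through mutants with uncoordinated movement, the source of the name unc.

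None of the synaptic genes passed the test between HLB01 and Control. Transcript levels were given in TPM, an abundance scaled for transcript length and to a fixed library total, so levels can be compared between genes. The members spanned 0.05 to 347 TPM, and their order from the highest gene, snb-1, to the lowest, tph-1, reflected differences between genes that were far larger than those between groups. Of the 33, 24 reached 1 TPM in at least 3 libraries and were tested in limma on log2(TPM + 1) within a fit over all 12590 genes that did so. With Benjamini-Hochberg adjustment and a threshold of 0.05, 0 of the 24 were higher and 0 lower, where 0.397% of all tested genes were called (0.167% higher and 0.23% lower). At an unadjusted p below 0.05 there were 2 members, ida-1 and cpx-1, against 8.32% of all tested genes. That count was 0 without HLB01 replicate 1, Control replicate 1 or Control replicate 3, and 1 without any other single library. The other limma settings tried, given in the closing section, also called 0 members.

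**Figure D1:**
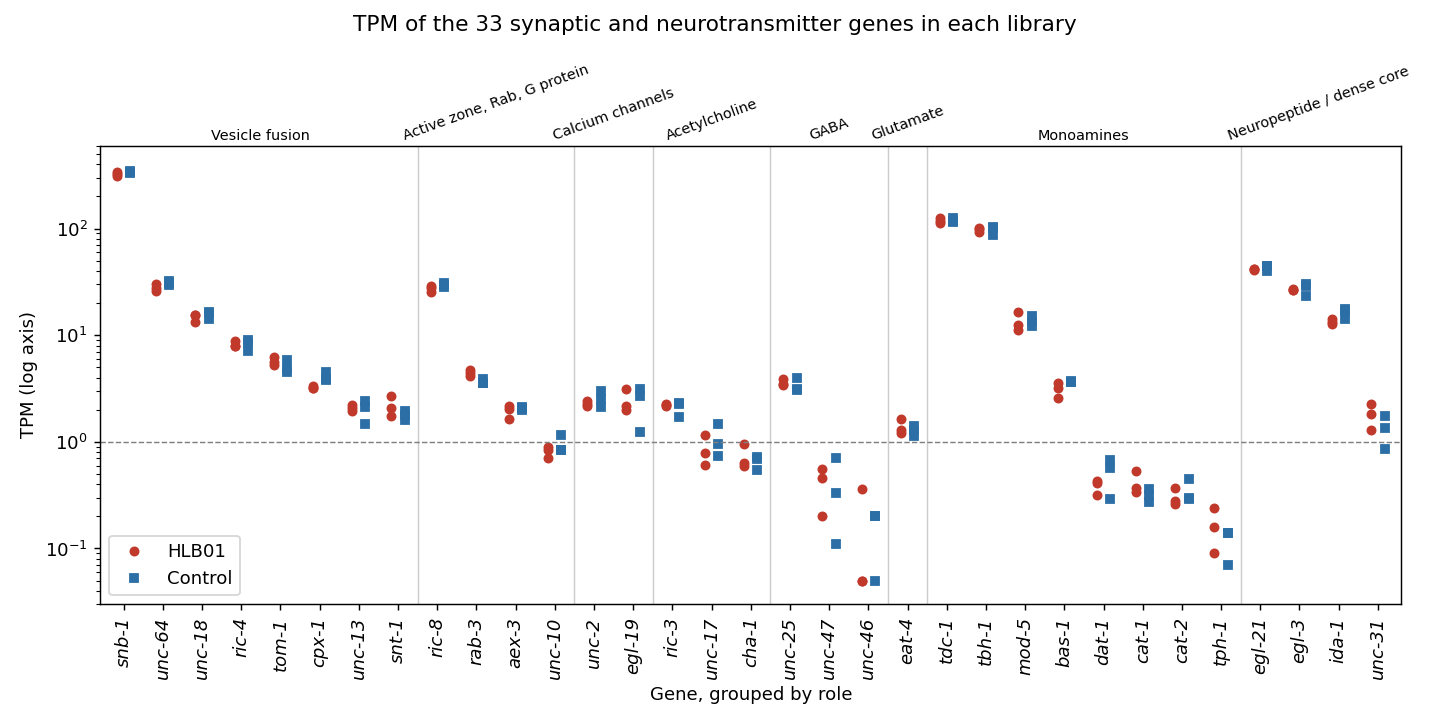
TPM of each of the 33 genes in each library on a log axis, with HLB01 libraries as circles and Control libraries as squares to their right, grouped by role, with a dashed line at 1 TPM. snb-1, tdc-1 and tbh-1 stand far above the rest, and the groups cover overlapping heights for most genes.

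The tested members had log2 fold changes between -0.25 and 0.27, with a median of -0.02, against a median of 0.00 over all tested genes. Of the 24, 13 were negative and 11 positive, while 51.3% of all tested genes were negative. The 95% interval of the difference lay within 1.5-fold in either direction for 22 of the 24. The exceptions were egl-19, with an interval of 0.695-fold to 1.58-fold, and unc-31, with 0.876-fold to 1.66-fold. These folds are on the log2(TPM + 1) scale, which understates differences of genes with a few TPM. The other 9 members did not reach the filter and are given by their values. With no filter on low values, limma tested all 33 members and called 0 higher and 0 lower.

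**Figure D2:**
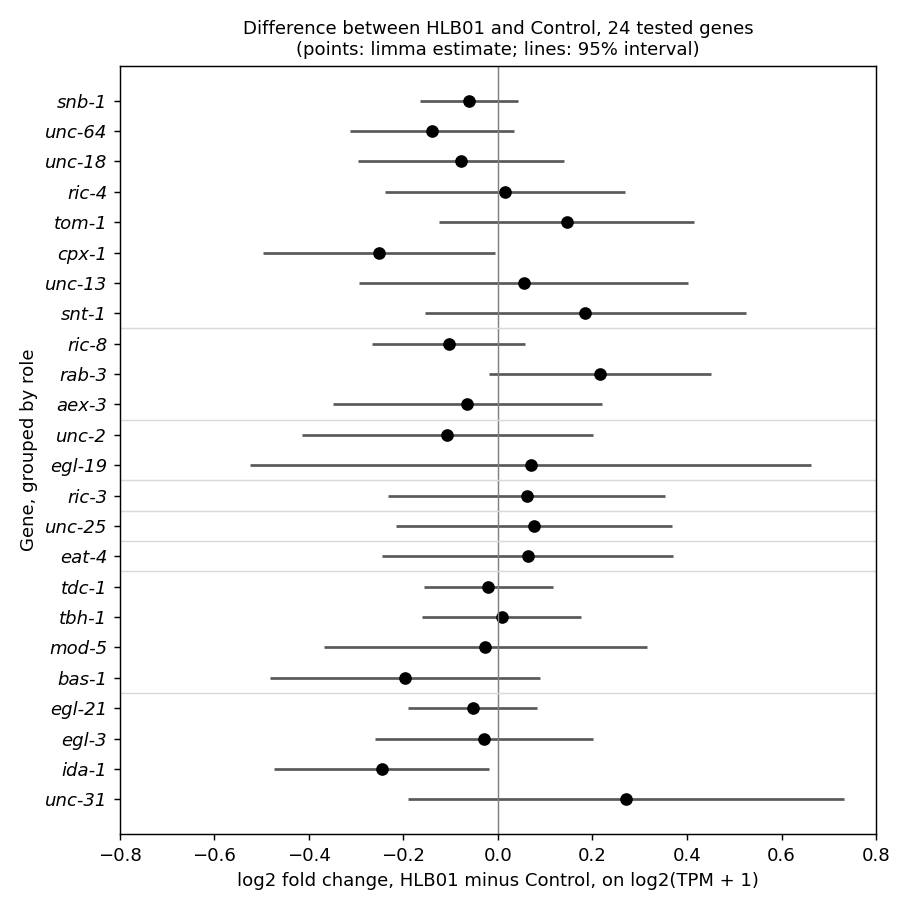
Log2 fold change of the 24 tested genes, HLB01 minus Control on log2(TPM + 1), as points with 95% intervals from limma, ordered by role. The points lie between -0.25 and 0.27, and the intervals of cpx-1 and ida-1 lie below 0 before adjustment for the number of genes tested.

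As wholes, the libraries were highly correlated, with HLB01 replicate 3 apart from the others on the leading principal component. Over all tested genes, log2(TPM + 1) had correlations of 0.980 to 0.988 between libraries of different groups and 0.984 to 0.988 between libraries of the same group. On the leading principal component (31.3% of the variance) HLB01 replicate 3 scored 32.01 and the other libraries -15.3 to -0.57. Ribosomal RNA took 2123 to 4895 TPM in HLB01 libraries, with the highest value in replicate 3, and 530 to 2684 TPM in Control libraries. TPM keeps no read depth, so the number of reads behind a value is unknown. Of 23 genes outside the members that were listed as neuronal markers, 20 passed the filter and none was at 0 throughout. Their summed level was 339 to 362 TPM in HLB01 libraries and 332 to 370 TPM in Control libraries. The list includes genes of few neurons (mec-7 and mec-12) and genes also active outside neurons (dpy-23, unc-51 and ehs-1). The sum therefore does not measure the amount of neuronal RNA. In bulk RNA such as this, a change within neurons and a change in the share of RNA from other tissues cannot be told apart.

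Among the SNARE proteins, snb-1 dominated. snb-1 (WBGene00004897, WBcel235 chromosome V, 6655562 to 6656501, minus strand) encodes synaptobrevin, the SNARE of the vesicle membrane. It was at 327, 337 and 309 TPM in HLB01 replicates 1, 2 and 3, against 347, 332 and 336 TPM in Control replicates 1, 2 and 3. The groups overlapped, and the means of 324 ± 14.5 and 338 ± 7.76 TPM (HLB01 and Control, SD, n = 3 each) gave a difference of -0.06 ± 0.04 on the log2 scale (SE here and below; limma adjusted p = 0.793). This level exceeded that of 96.9% of all tested genes. unc-64, the syntaxin of the plasma membrane (chromosome III, 13277258 to 13283887), had 27.7, 30.4 and 25.8 TPM in HLB01 libraries and 32.0, 29.4 and 31.2 TPM in Control libraries. Only HLB01 replicate 2 lay within the Control range (log2 fold change -0.14 ± 0.07, limma adjusted p = 0.695). unc-64 shares 64 exonic bases with set-25 on the other strand, which was at 16.02, 17.6 and 16.1 TPM in HLB01 libraries and 20.6, 18.8 and 18.6 TPM in Control libraries. Whether the authors counted by strand is not stated, so the part of set-25 in the unc-64 values was not tested. ric-4, the SNAP-25 homologue that completes the SNARE complex, had 7.91, 8.82 and 7.86 TPM in HLB01 libraries and 8.96, 7.04 and 8.39 TPM in Control libraries, with the HLB01 values inside the Control range. The level of snb-1 was 11.6 ± 0.468 times that of unc-64 in HLB01 libraries and 10.96 ± 0.276 times in Control libraries (SD, n = 3 each), and 39.6 ± 1.58 and 41.9 ± 4.51 times that of ric-4, so the 3 SNARE transcripts kept unequal levels in every library.

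Regulators of fusion spanned a wide range of levels, from unc-18 to snt-1. unc-18, which binds syntaxin and is needed for fusion, had 15.6, 15.5 and 13.4 TPM in HLB01 libraries and 16.6, 14.2 and 16.3 TPM in Control libraries. unc-13, the priming factor, was at 2.06, 1.96 and 2.23 TPM in HLB01 libraries, against 2.40, 1.48 and 2.1 TPM in Control libraries. tom-1, the tomosyn that holds back priming, had 5.29, 6.21 and 5.61 TPM in HLB01 libraries and 4.86, 4.56 and 5.80 TPM in Control libraries. The inhibitor was thus above the priming factor in all 6 libraries, at 2.52 to 3.17 times its level in HLB01 libraries and 2.03 to 3.08 times in Control libraries. snt-1, a synaptotagmin and calcium sensor of vesicle fusion, was at 2.08, 2.68 and 1.76 TPM in HLB01 libraries and 1.77, 1.6 and 1.96 TPM in Control libraries. Its highest value was in HLB01 replicate 2, and its log2 fold change of 0.18 ± 0.14 (limma adjusted p = 0.803) was 0.07 without that library.

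cpx-1 (WBGene00022271, chromosome I, 1594649 to 1596216, minus strand) encodes complexin, which clamps assembled SNARE complexes until calcium arrives. It had 3.23, 3.31 and 3.19 TPM in HLB01 libraries, against 4.51, 3.85 and 3.82 TPM in Control libraries. All 3 HLB01 values lay below all Control values, and the HLB01 values lay close together. The means were 3.24 ± 0.0611 TPM in HLB01 and 4.06 ± 0.390 TPM in Control (SD, n = 3 each), a ratio of 0.799, and the log2 fold change of -0.25 ± 0.10 did not pass (limma adjusted p = 0.599).

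Of the active zone, Rab and G protein genes, rab-3 was the only one with separate groups. Such separation was found for 13.8% of all tested genes. rab-3 (WBGene00004267, chromosome II, 5721767 to 5727853, minus strand) encodes the small GTPase that marks synaptic vesicles. It was at 4.74, 4.46 and 4.14 TPM in HLB01 libraries, against 3.90, 3.59 and 3.57 TPM in Control libraries. Every HLB01 value lay above every Control value. The ratio of means was 1.21, and the log2 fold change of 0.22 ± 0.10 did not pass (limma adjusted p = 0.632). rab-3 shares 25 exonic bases with damt-1 on the other strand, which was at 18.6, 20.96 and 20.3 TPM in HLB01 libraries and 17.9, 18.6 and 18.5 TPM in Control libraries, and the part of damt-1 in the rab-3 values was not tested. The exchange factor that activates RAB-3, aex-3, had 2.15, 2.03 and 1.63 TPM in HLB01 libraries and 2.07, 1.98 and 2.14 TPM in Control libraries, with the lowest value in HLB01 replicate 3. unc-10, the RIM scaffold that binds RAB-3 at the active zone, was too low for the test, at 0.89, 0.70 and 0.83 TPM in HLB01 libraries and 1.16, 0.83 and 0.83 TPM in Control libraries. ric-8, an exchange factor for G protein alpha subunits, was at 25.3, 28.8 and 27.8 TPM in HLB01 libraries and 30.7, 28.1 and 29.3 TPM in Control libraries, with overlapping groups (log2 fold change -0.10 ± 0.07, limma adjusted p = 0.761).

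The calcium channels varied between libraries more than between groups. unc-2, the presynaptic channel subunit, had 2.24, 2.19 and 2.42 TPM in HLB01 libraries and 3.03, 2.12 and 2.51 TPM in Control libraries. egl-19, the L-type channel subunit of muscle and neurons, was at 2.01, 2.18 and 3.11 TPM in HLB01 libraries and 3.15, 1.23 and 2.68 TPM in Control libraries. It had the largest spread between replicates of all tested members, with a pooled SD of 0.376 on the log2 scale against a median of 0.118 over the tested members and 0.109 over all tested genes. The body wall muscle markers, 14 of 14 tested, had median log2 deviations from the Control mean of -0.24, -0.17 and 0.12 in HLB01 replicates 1, 2 and 3 and of 0.04, -0.06 and 0.02 in Control replicates 1, 2 and 3. Their summed level was 973 to 1201 TPM in HLB01 libraries and 1101 to 1156 TPM in Control libraries, no marker was at 0 throughout, and 0 of the 14 were called in limma. In both groups the library with the lowest muscle marker median also had the lowest egl-19 value, and the part of muscle RNA in egl-19 was not tested.

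**Figure D3:**
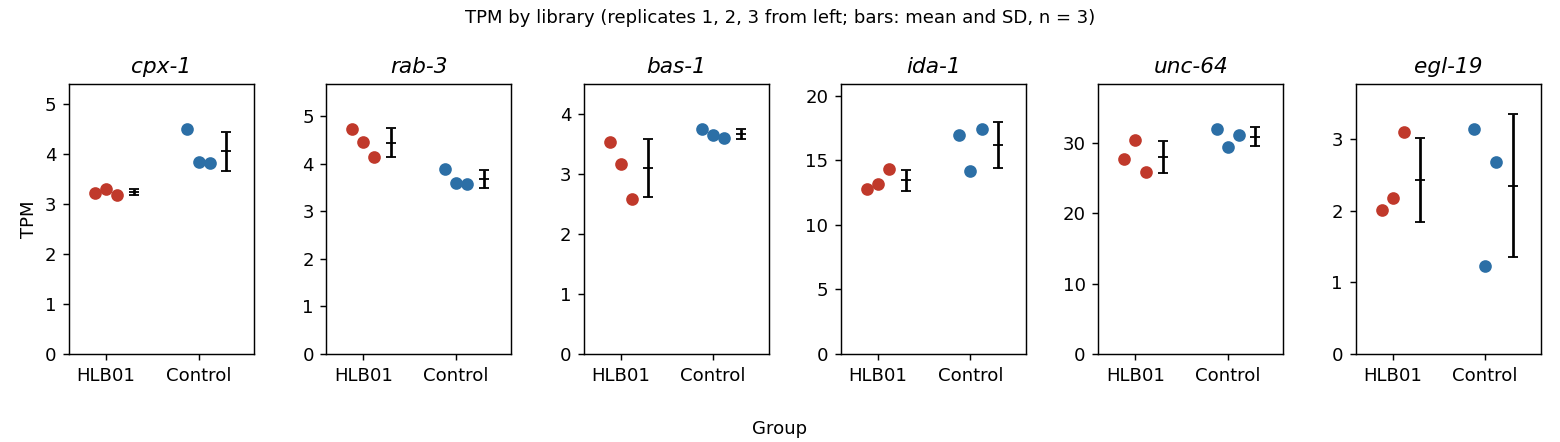
TPM by library for cpx-1, rab-3, bas-1, ida-1, unc-64 and egl-19, with HLB01 left of Control, replicates 1 to 3 from left to right, and mean and SD beside them (n = 3). The groups are separate for cpx-1, rab-3 and bas-1, overlap at 1 library each for ida-1 and unc-64, and overlap fully for egl-19.

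Most genes of the fast transmitters were in the lower range of the members. unc-17, the vesicular acetylcholine transporter, and cha-1, the choline acetyltransferase, form a nested locus on chromosome IV (3613931 to 3624699, minus strand) and share 66 exonic bases. unc-17 was at 0.79, 0.61 and 1.15 TPM in HLB01 libraries and 1.46, 0.74 and 0.95 TPM in Control libraries. cha-1 was at 0.63, 0.60 and 0.95 TPM in HLB01 libraries and 0.72, 0.55 and 0.69 TPM in Control libraries. Since shared reads may be divided between them in either way, their sum is the safer quantity, and it was 1.58 ± 0.465 TPM in HLB01 and 1.70 ± 0.448 TPM in Control (SD, n = 3 each), with overlapping groups. ric-3, a chaperone for the assembly of acetylcholine receptors, had 2.27, 2.18 and 2.22 TPM in HLB01 libraries and 2.32, 2.27 and 1.72 TPM in Control libraries.

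For GABA, unc-25, the glutamic acid decarboxylase that makes the transmitter, was at 3.48, 3.88 and 3.44 TPM in HLB01 libraries and 4.0, 3.04 and 3.10 TPM in Control libraries. The vesicular GABA transporter unc-47 had only 0.46, 0.20 and 0.56 TPM in HLB01 libraries and 0.70, 0.33 and 0.11 TPM in Control libraries. unc-46, which directs that transporter to vesicles, was lower still, at 0.05, 0.05 and 0.36 TPM in HLB01 libraries and 0.20, 0.05 and 0.20 TPM in Control libraries. Synthesis thus exceeded transport at the transcript level in every library, while unc-47 and unc-46 varied widely between libraries of both groups. For glutamate, the vesicular transporter eat-4 was at 1.65, 1.29 and 1.22 TPM in HLB01 libraries and 1.40, 1.30 and 1.14 TPM in Control libraries (log2 fold change 0.06 ± 0.13, limma adjusted p = 0.931). Its exons overlap those of ZK512.2 by 79 bases and of ZK512.7 by 40 bases, both on the other strand and both more abundant. ZK512.2 was at 52.6, 50.1 and 44.5 TPM in HLB01 libraries and 50.5, 48.7 and 49.5 TPM in Control libraries. ZK512.7 was at 23.9, 22.3 and 24.9 TPM in HLB01 libraries and 21.4, 22.9 and 22.1 TPM in Control libraries, and the part of either gene in the low eat-4 values was not tested.

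The monoamine genes lay in separate ranges. tdc-1 (WBGene00006562, chromosome II, 8270597 to 8273615, plus strand) encodes the tyrosine decarboxylase that makes tyramine, and tbh-1 (WBGene00006541, chromosome X, 15500256 to 15504895, minus strand) the enzyme that turns tyramine into octopamine. Outside the nervous system, both are known to be active in gonadal sheath cells. tdc-1 had 117.2, 112.5 and 126.9 TPM in HLB01 libraries and 118.5, 116.3 and 126.7 TPM in Control libraries. tbh-1 had 101, 99.5 and 92.6 TPM in HLB01 libraries and 87.7, 103.6 and 100.8 TPM in Control libraries. Both were nearly level between the groups, with log2 fold changes of -0.02 ± 0.06 and 0.01 ± 0.07 (limma adjusted p = 0.954 and 0.983) and 95% intervals of 0.897-fold to 1.08-fold and 0.895-fold to 1.13-fold. They share 73 and 26 exonic bases with gei-14 and suox-1 on the other strand. gei-14 was at 28.96 to 33.8 TPM in HLB01 libraries and 27.6 to 29.99 TPM in Control libraries, and suox-1 at 10.4 to 12.2 TPM in HLB01 libraries and 12.1 to 12.6 TPM in Control libraries.

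Genes of serotonin and dopamine were far lower, apart from mod-5. The tryptophan hydroxylase gene tph-1, which starts serotonin synthesis, was at 0.16, 0.09 and 0.24 TPM in HLB01 libraries and 0.14, 0.07 and 0.14 TPM in Control libraries. It shares 43 exonic bases with ZK1290.10 on the other strand, at 3.84 to 4.16 TPM in HLB01 libraries and 4.07 to 4.86 TPM in Control libraries. The tyrosine hydroxylase gene cat-2, which starts dopamine synthesis, was at 0.26, 0.37 and 0.28 TPM in HLB01 libraries and 0.45, 0.30 and 0.29 TPM in Control libraries. cat-2 lies without exonic overlap across scc-2 on the other strand, at 53.3 to 58.8 TPM in HLB01 libraries and 52.2 to 58.7 TPM in Control libraries. The vesicular monoamine transporter gene cat-1 had 0.53, 0.37 and 0.34 TPM in HLB01 libraries and 0.36, 0.32 and 0.27 TPM in Control libraries. dat-1, the dopamine reuptake transporter, had 0.41, 0.43 and 0.32 TPM in HLB01 libraries and 0.68, 0.29 and 0.57 TPM in Control libraries. The groups overlapped for all 4 of these genes, and none of the 4 passed the filter.

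The serotonin reuptake transporter gene mod-5 had 11.3, 12.4 and 16.5 TPM in HLB01 libraries and 15.1, 13.2 and 12.3 TPM in Control libraries. Its HLB01 values enclosed all Control values, and it stood far above tph-1 in every library. mod-5 shares 52 exonic bases with Y54E10BR.2 on the other strand, which was at 69.6, 68.8 and 66.6 TPM in HLB01 libraries and 58.4, 63.4 and 63.4 TPM in Control libraries, and its part in the mod-5 values was not tested. bas-1 (WBGene00000239, chromosome III, 5612274 to 5614660, plus strand) encodes the decarboxylase that completes both serotonin and dopamine. bas-1 was at 3.54, 3.17 and 2.58 TPM in HLB01 libraries, against 3.76, 3.65 and 3.61 TPM in Control libraries. The HLB01 values all lay below the Control values, and the lowest was that of HLB01 replicate 3. The ratio of means was 0.843, and the log2 fold change of -0.20 ± 0.12 did not pass (limma adjusted p = 0.741). Without HLB01 replicate 3 it was -0.10.

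Of the neuropeptide processing and dense core vesicle genes, egl-21, egl-3 and ida-1 lay well above unc-31. egl-21, the carboxypeptidase that trims cut peptides, had 40.9, 41.4 and 41.5 TPM in HLB01 libraries and 44.6, 39.8 and 44.4 TPM in Control libraries. egl-3, the proprotein convertase that makes the first cut, had 26.6, 27 and 26.4 TPM in HLB01 libraries and 30.4, 23.2 and 28.7 TPM in Control libraries. For both enzymes the HLB01 values lay inside the Control range, and egl-21 was at 1.55 ± 0.0205 times the level of egl-3 in HLB01 libraries and 1.58 ± 0.125 times in Control libraries (SD, n = 3 each). ida-1 (WBGene00002048, chromosome III, 5755539 to 5765816, plus strand) encodes a membrane protein of dense core vesicles. It was at 12.8, 13.2 and 14.3 TPM in HLB01 libraries, against 16.9, 14.1 and 17.4 TPM in Control libraries. Only Control replicate 2 reached into the HLB01 range. ida-1 had the smallest p of the members, with means of 13.4 ± 0.802 TPM in HLB01 and 16.2 ± 1.78 TPM in Control (SD, n = 3 each) and a log2 fold change of -0.25 ± 0.10 that did not pass (limma adjusted p = 0.565). unc-31, the CAPS protein needed for dense core vesicle release, was at 2.24, 1.29 and 1.82 TPM in HLB01 libraries and 1.35, 1.73 and 0.86 TPM in Control libraries. Its groups overlapped, and its log2 fold change of 0.27 ± 0.20 did not pass (limma adjusted p = 0.794). That value depended on single libraries and on the pseudocount: it was 0.12 without Control replicate 3, 0.15 without HLB01 replicate 1, and 0.43 or 0.10 when 0.1 or 5 TPM was added in place of 1.

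The groups were separate for 3 of the 24 tested members, 1 higher (rab-3) and 2 lower (cpx-1 and bas-1), where 13.8% of all tested genes had separate groups (6.85% higher and 6.99% lower). The count was 10 without Control replicate 2, 7 without HLB01 replicate 2 and 5 without HLB01 replicate 3. Fewer libraries make separate groups more common, in all genes as in the members. The share over all tested genes is not given for these settings, so the counts cannot be read as a result about the members. None of the 9 untested members had separate groups.

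The tested members were set against their Control mean in each library. Of the 24 tested members, 14, 15 and 15 were below their Control mean in HLB01 replicates 1, 2 and 3, and 4, 20 and 11 in Control replicates 1, 2 and 3. The median deviation from the Control mean on the log2 scale was -0.03, -0.01 and -0.04 in HLB01 replicates 1, 2 and 3 and 0.07, -0.06 and 0.03 in Control replicates 1, 2 and 3. The reference is the mean of the same Control libraries, so Control medians fall around 0 by construction. Their range therefore cannot be set against that of the HLB01 medians, and the same holds for the counts. Of all 12590 tested genes, 6463, 5752 and 6735 were below their Control mean in HLB01 replicates 1, 2 and 3. In Control replicates 1, 2 and 3 there were 4690 (37.3%), 7739 (61.5%) and 6178 such genes. Summed over the 33 members, levels were 754, 767 and 742 TPM in HLB01 libraries and 793, 756 and 791 TPM in Control libraries, with snb-1, tdc-1 and tbh-1 together holding 71.7 ± 0.560% of the sum in HLB01 and 71.3 ± 1.57% in Control (SD, n = 3 each).

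**Figure D4:**
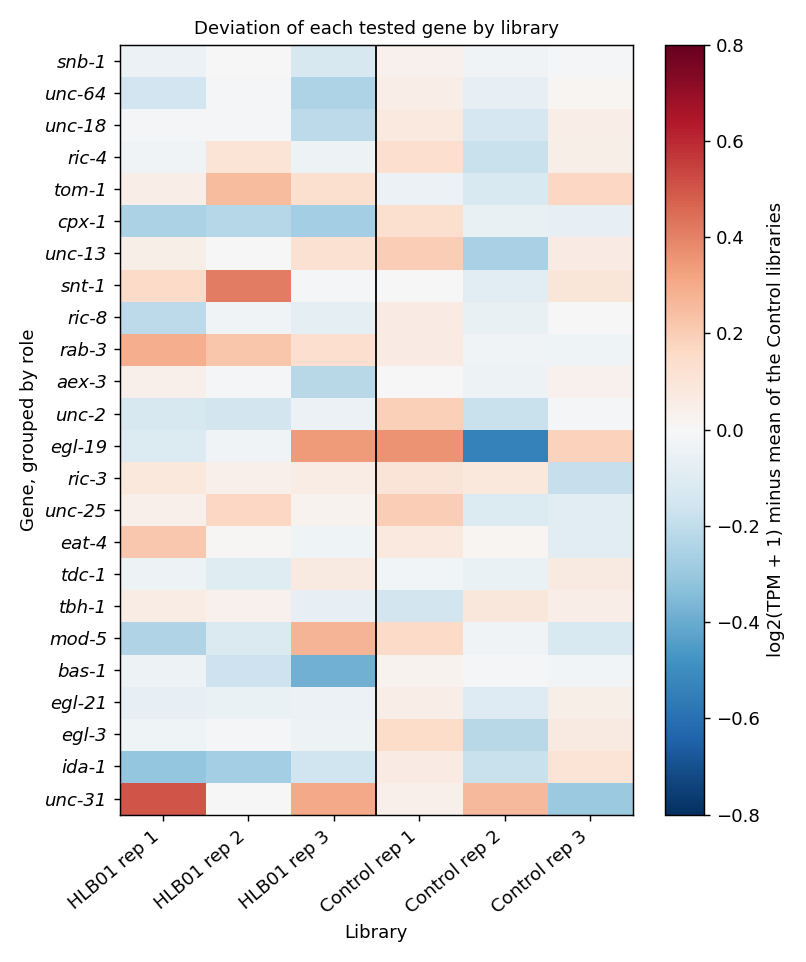
Log2 deviation of each tested gene from the mean of the Control libraries, with 1 column per library, HLB01 left of the line and Control right of it, and genes grouped by role. Control replicate 2 is below the Control mean for 20 of 24 genes, and egl-19 shows the widest range among Control libraries.

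The members share few features of position. They lie on all 6 chromosomes, 4 on I, 5 on II, 7 on III, 7 on IV, 4 on V and 6 on X. The 7 members with an annotated transcript above 4000 bp (unc-2, unc-13, egl-19, unc-31, unc-10, aex-3 and tom-1) all averaged at most 5.39 TPM. The highest of them, tom-1, ranked 12 of the 33 by level, so many members with shorter transcripts were also that low. Another annotated gene that reached 1 TPM in 3 or more libraries overlaps 9 of the members, in exons for 7 of them. The remaining such partner, ostd-1, overlaps tom-1 without shared exons and was at 145 to 164 TPM in HLB01 libraries and 150.0 to 161 TPM in Control libraries.

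Further genes of the same pathways, 201 in 7 lists, were read from the same fit. Of these, 141 were tested, and limma called 0 higher and 0 lower, with 7 at an unadjusted p below 0.05 and a median log2 fold change of -0.01. Over all tested genes, 0.397% were called and 8.32% were at an unadjusted p below 0.05. By list, negative fold changes were found for 25 of 43 genes of the vesicle cycle, 10 of 19 for acetylcholine, 3 of 5 for GABA, 5 of 16 for glutamate, 8 of 14 for monoamines, 15 of 19 for G proteins and 11 of 25 for neuropeptides, against 51.3% of all tested genes. In the vesicle cycle and active zone list 43 genes were tested (median -0.01). The smallest p there belonged to unc-43, a calcium-dependent kinase, at 32.5 ± 2.13 TPM in HLB01 and 37.5 ± 1.77 TPM in Control (SD, n = 3 each; limma adjusted p = 0.433). Acetylcholine receptor, esterase and transport genes had 19 tested members (median -0.03), led by nra-2, a factor in the assembly of acetylcholine receptors, at 86.2 ± 2.14 and 78.5 ± 1.06 TPM in HLB01 and Control (limma adjusted p = 0.369). Of the GABA receptor and transport genes 5 were tested (median -0.01), and the receptor subunit gene unc-49 had 4.13 ± 0.429 TPM in HLB01 and 3.25 ± 0.341 TPM in Control (limma adjusted p = 0.610).

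Glutamate receptor and transport genes (16 tested, median 0.01) held the largest difference of all these lists. avr-15, a subunit of glutamate-gated chloride channels, was at 5.32, 6.79 and 5.55 TPM in HLB01 libraries, against 3.86, 4.01 and 3.89 TPM in Control libraries. Its groups were separate, and its log2 fold change of 0.48 ± 0.11 did not pass (limma adjusted p = 0.211). avr-15 is known to be active in pharyngeal muscle. The pharynx markers, 6 of 10 tested, had median log2 deviations of -0.08, -0.10 and 0.27 in HLB01 replicates 1, 2 and 3 and 0.02, -0.10 and 0.09 in Control replicates 1, 2 and 3, and their summed level was 220 to 279 TPM in HLB01 libraries and 237 to 263 TPM in Control libraries. None of the pharynx markers was at 0 throughout, their highest library was HLB01 replicate 3 while that of avr-15 was HLB01 replicate 2, and their part in avr-15 was not tested.

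Among monoamine receptors and cofactor enzymes 14 genes were tested (median -0.04). cat-4, which makes the cofactor needed by the hydroxylases TPH-1 and CAT-2, had 50.3, 42.2 and 40.7 TPM in HLB01 libraries and 49.7, 58.2 and 52.6 TPM in Control libraries. HLB01 replicate 1 lay inside the Control range (limma adjusted p = 0.489). G protein genes that control release had 19 tested members (median -0.07), with gpb-1, a beta subunit, at 80.2 ± 5.17 TPM in HLB01 and 88.1 ± 3.33 TPM in Control (limma adjusted p = 0.612). Neuropeptide processing and dense core vesicle genes (25 tested, median 0.03) were led by nep-1, a peptidase of the neprilysin family, at 17.3 ± 0.872 TPM in HLB01 and 20.2 ± 1.09 TPM in Control (SD, n = 3 each; limma adjusted p = 0.443).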

How the data were processed

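The deposited table holds TPM values, scaled by the authors for length and to a fixed total, for 46778 genes in 1 column per library. The tools fastp, HISAT and RSEM and build WBcel235 are named in the submitters' processing notes. Their versions, the annotation, any filter and the use of strand are not given in the sources. Because the total is fixed, large changes in abundant transcripts shift all other values. Symbols and coordinates come from the symbol table and the Ensembl annotation of WBcel235.

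Two-sided tests without covariates came from limma 3.58.1 (R 4.3.3), fitted to log2(TPM + 1) with its trend option, over genes that reached 1 TPM in 3 or more libraries. Benjamini-Hochberg adjustment ran over all tested genes, with a threshold of 0.05. Fold changes are HLB01 minus Control with SE, and ratios are of mean TPM. The script was tested on simulated data. Alternatives were other models, scalings, pseudocounts and filters, a replicate block, and leaving out each library.

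The members and lists were chosen with earlier results of these data known. All 33 members are named, and from each pathway list every called gene or else the gene with the smallest p. Overlapping genes are named where they reach 1 TPM in at least 3 libraries. Of 383 list entries, 5 matched no gene or more than 1.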

Additional observations from a re-analysis of the deposited data

How the results depend on the processing

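In all 16 alternatives limma called 0 members and 0 pathway genes, and the median log2 fold change of the tested members stayed between -0.075 and 0.017. The count of all called genes, 50, was 27 without the trend, 80 with array weights, 22 with no filter on low values and 19 to 32 when 1 library was left out. Separate groups were found for 5 members with median ratio scaling, for 0 of 12 with a filter of 5 TPM, and for 3 to 10 when 1 library was left out. The share over all tested genes, 13.8% at the settings of the report, is not given for the alternatives. These counts therefore cannot be set against the rest of the genes. Gene deviations from the mean of their own group had correlations of -0.01, 0.04 and 0.13 between same-numbered HLB01 and Control libraries. With 3 libraries per group, these values cannot decide whether the replicate numbers pair the samples. With the replicate block 48 genes and 0 members were called. The sign of mod-5 turned with quantile normalization (0.0033). With 1 library left out, values crossed 0 for mod-5 (-0.18 to 0.080), tbh-1 (-0.065 to 0.054), tdc-1 (-0.068 to 0.018), ric-4 (-0.074 to 0.080), egl-3 (-0.14 to 0.046), egl-19 (-0.20 to 0.25), eat-4 (-0.014 to 0.11), aex-3 (-0.12 to 0.013), unc-13 (-0.075 to 0.15) and ric-3 (-0.032 to 0.11). The cause of these moves was not tested. The count of members at an unadjusted p below 0.05, 2 at the settings of the report, was 3 without the trend, 1 with no filter, a filter of 5 TPM or the replicate block, and 0 to 1 when 1 library was left out. The read depth behind levels below 1 TPM is unknown, which limits what they can show.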
